A study of Mus musculus with 2 samples.

Results

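The genes described here are 10 genes of prostaglandin and leukotriene synthesis and signalling: Ptgs1, Ptgs2, Ptges, Hpgds, Tbxas1, Alox5, Alox5ap, Ltc4s, Ptger2 and Ptger4. They were taken as a named list, and all 10 were found among the 27998 genes of both count matrices. The data are droplet single-cell RNA profiles of macrophages sorted from the mouse small intestine, with 1 library from WT animals and 1 from CCR2-/- animals. Per the labels, the WT animals were male C57BL/6J mice from Janvier, and the CCR2-/- animals were of JAX strain number 004999 and bred in-house. CCR2 is the chemokine receptor through which monocytes leave the bone marrow, and the monocytes that replenish gut macrophages depend on it. In both groups the epithelium had been removed, the tissue had been digested with Liberase TL, and cells from 3 to 4 intestines had been pooled before sorting. The sort took live cells positive for CD64, MHCII, CD11b and CD45, and excluded cells stained for Ly6G, Ly6C, SiglecF, B220, TCRb or CD3. The WT cells had been run on 2 lanes, which are told apart by barcode suffix and are parts of 1 sample, not replicates. Genotype, library and animal source were the same split and cannot be told apart, and no test between genotypes was possible.

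Prostaglandins and leukotrienes are lipid mediators made from arachidonic acid, which phospholipases release from membranes. The cyclooxygenases, encoded by Ptgs1 and Ptgs2, turn it into prostaglandin H2, from which separate synthases make prostaglandin E2, prostaglandin D2 and thromboxane. The lipoxygenase encoded by Alox5, presented with its substrate by the protein encoded by Alox5ap, starts the leukotriene branch. In the gut, macrophages are a known source of prostaglandin E2, which supports epithelial renewal and is sensed through the receptors EP2 and EP4, encoded by Ptger2 and Ptger4.

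After removal of cells with fewer than 200 detected genes or more than 10% mitochondrial counts, 2612 CCR2-/- cells and 3016 WT cells remained. They held 7265386 and 20678108 unique molecular identifiers (UMIs, each marking 1 captured transcript), with medians of 2439 and 6129 UMIs per cell. At least 3 of 10 macrophage markers, among them C1qa, Csf1r and Mertk, were detected in 96.3% of CCR2-/- cells and 99.5% of WT cells. Ccr2 stood at 6.88 UMIs per 1000000 UMIs of the library (CPM) in the CCR2-/- library, from 50 UMIs, and at 331 CPM in WT. The early response genes Fos, Egr1 and Dusp1, which are known to be induced by tissue dissociation among other stimuli, together made up 1.08% of CCR2-/- UMIs and 0.249% of WT UMIs. Of 10 mast cell genes, 9 were at 0 in both libraries. Fibroblast genes summed to 245 CPM in CCR2-/- and 27.9 CPM in WT, and endothelial genes to 194 and 52.3 CPM, with none of either list at 0 in either library. The lanes shared 5 barcodes, and the libraries shared 6.

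Ptgs2 was the member whose level differed most between the libraries among those with a mean of at least 10 CPM. Of the 8 members above that level, 1 was at least 2-fold higher in the CCR2-/- library and 0 were at least 2-fold lower. Over all 7401 genes above it, 9.04% were at least 2-fold higher and 3.12% at least 2-fold lower. The median log2 ratio of the 8 members was 0.32, with 7 of 8 above 0, and the median over all 7401 genes was 0.18. When the libraries were scaled by the median of gene ratios, which moved the median of all genes to -0.12, Ptgs2, Hpgds, Ptger4 and Ltc4s stayed above 0 and Ptgs1, Alox5, Alox5ap and Tbxas1 lay below it. Ptges and Ptger2 fell below the level.

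**Figure D1:**
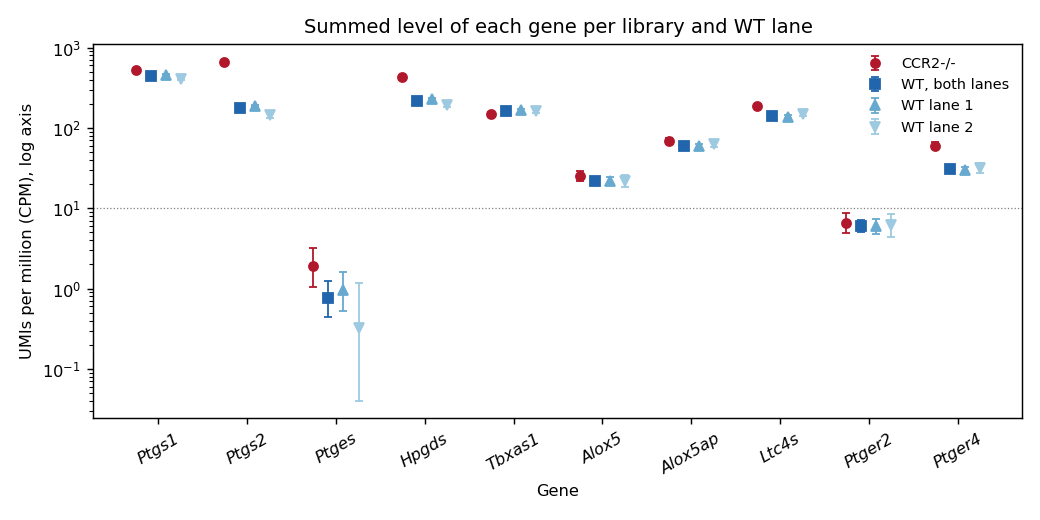
Summed level of each gene in UMIs per 1000000 (CPM, log axis) in the CCR2-/- library (circles), the WT library (squares) and its lanes (triangles), with exact 95% Poisson intervals, which cover counting error only. The dotted line marks 10 CPM. The CCR2-/- point for Ptgs2, at 663 CPM, stands above the WT lanes at 188 and 143 CPM, while the Alox5 points, at 25.3, 21.9 and 21.8 CPM, have overlapping intervals.

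Of the 2 cyclooxygenase genes, Ptgs2 differed between the libraries far more than Ptgs1. Ptgs1 (chr2:36230426-36252272, plus strand, GRCm38) encodes the constitutive enzyme cyclooxygenase-1. Its level was 525 CPM in the CCR2-/- library (95% Poisson interval 509 to 542) and 442 CPM in WT, with 457 CPM in lane 1 and 407 CPM in lane 2. The log2 ratio was 0.25 (counting interval 0.19 to 0.30), little more than the -0.16 between the lanes. With libraries scaled by the median of gene ratios the ratio turned to -0.06.

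Ptgs2 (chr1:150100031-150108227, plus strand) encodes the inducible enzyme cyclooxygenase-2. Its level was 663 CPM in the CCR2-/- library (645 to 682) and 175 CPM in WT (169 to 181), with 188 CPM in lane 1 and 143 CPM in lane 2. Both lanes were thus well below the CCR2-/- library. The log2 ratio of 1.92 (counting interval 1.86 to 1.98), a 3.77-fold difference, was larger than 98.5% of the ratios over all tested genes, and the lanes differed by -0.39. Among cells of similar depth, with 2000 to 4000 UMIs (1051 CCR2-/- and 713 WT cells), Ptgs2 was at 729 CPM in CCR2-/- and 319 CPM in WT. The ratio there was 2.28-fold (log2 1.19, counting interval 1.06 to 1.32), so the size of the difference moved with depth while its direction did not.

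The balance of the 2 enzymes was reversed between the libraries. Ptgs2 contributed 55.8% of the combined Ptgs1 and Ptgs2 UMIs in CCR2-/- (95% Clopper-Pearson interval 54.8 to 56.9) and 28.4% in WT (27.6 to 29.2), with 29.2% and 26.0% in the lanes. Because 3′ UMI counts do not grow with transcript length, the 2 genes can be set side by side on this scale, although capture may differ between them.

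Shares of cells were taken after each cell was thinned at random to 1000 UMIs, which left out 196 CCR2-/- cells and 1 WT cell that were shallower. A Ptgs2 UMI was present in 35.4% of thinned CCR2-/- cells (33.5 to 37.3) and 14.1% of thinned WT cells (12.8 to 15.4), with 14.7% and 12.5% in the lanes. Unthinned, the shares were 50.7% and 40.2%. For Ptgs1 the thinned shares were close, 38.0% and 35.5%, and the unthinned ones were 62.2% and 81.3%. As a measure of free RNA, lymphoid-like cells, which should lack both genes, numbered 27 in CCR2-/- (median 2212 UMIs) and 11 in WT (median 3564 UMIs). None of these cells had a Ptgs2 UMI, for which the upper bounds were 12.8% and 28.5%, and 1 had a Ptgs1 UMI.

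Ptgs2 was also more unevenly spread over cells than Ptgs1. At 1000 UMIs per cell, 69 CCR2-/- cells (2.86%) held 5 or more Ptgs2 UMIs, against 9 WT cells (0.299%), and the highest cells held 12 and 11. For Ptgs1 those numbers were 6 and 2 cells, out of 2416 and 3015. The 10% of WT cells richest in Ptgs2 held 80% of its UMIs and the corresponding 10% of CCR2-/- cells 55.8%, whereas for Ptgs1 these were 44.9% in both libraries. These percentages depend on how many cells hold a UMI, so they do not rank the libraries by unevenness. The variance of UMIs per cell over their mean was 2.64 in CCR2-/- and 1.90 in WT for Ptgs2. For Ptgs1 it was 1.29 and 1.11. Both genes together were detected in 357 CCR2-/- cells (14.8%) and 165 WT cells (5.47%), which was 1.10 times the number given by the separate shares in either library, with counting intervals that include 1 in both (0.988 to 1.22 and 0.936 to 1.28).

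Hpgds, Ptges and Tbxas1 encode synthases acting on prostaglandin H2. Hpgds (chr6:65117293-65144908, minus strand) encodes the haematopoietic prostaglandin D synthase. It was at 434 CPM in CCR2-/- (419 to 449) and 218 CPM in WT, with 228 and 194 CPM in the lanes, so that both lanes were below the CCR2-/- library. The log2 ratio of 0.99 (0.93 to 1.06) lay just under the 2-fold line, and it was 0.66 among cells with 2000 to 4000 UMIs. Hpgds was detected in 33.0% of thinned CCR2-/- cells and 20.6% of thinned WT cells, while unthinned shares were 58.9% and 60.4%, and in 1 of the 27 CCR2-/- lymphoid-like cells and 0 of the 11 WT ones.

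Ptges (chr2:30889471-30929863, minus strand), the inducible microsomal prostaglandin E synthase, was nearly absent from the counts. It gave 14 UMIs in CCR2-/- (1.93 CPM) and 16 in WT (0.774 CPM), too few to compare, and was in 3 and 1 thinned cells (0.124% and 0.0332%). Of the 14 CCR2-/- UMIs, 9 (64.3%) came from 19 cells with at least 3 fibroblast genes, and without cells of other lineages the log2 ratio turned from 0.72 to -0.18. Ptges3, which encodes a cytosolic prostaglandin E synthase that is also the co-chaperone p23, was by contrast at 117 CPM in CCR2-/- and 128 CPM in WT.

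Tbxas1 (chr6:38875404-39084585, plus strand), the thromboxane A synthase, was lower in the CCR2-/- library, the only one of the 8 members to be so on the CPM scale; Ptgs1, Alox5 and Alox5ap joined it when the libraries were scaled by the median of gene ratios. Its level was 147 CPM in CCR2-/- (139 to 157) and 165 CPM in WT, with 165 and 163 CPM in the lanes. The log2 ratio was -0.16 (-0.26 to -0.06). Tbxas1 was detected in 13.2% of thinned CCR2-/- cells and 15.3% of thinned WT cells (unthinned 29.1% and 58.6%). Hipk2 overlaps Tbxas1 on the opposite strand, and the strand setting of the counting is not given in the sources used here.

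Of the leukotriene genes, summed over all cells, Alox5 and Alox5ap were at like levels in both libraries and Ltc4s was higher in CCR2-/-. Alox5 (chr6:116410077-116461178, minus strand), the lipoxygenase itself, was at 25.3 CPM in CCR2-/- (21.8 to 29.3) and 21.9 CPM in WT (19.9 to 24.0). Alox5ap (chr5:149264767-149288153, plus strand), its activating protein, was at 69.8 CPM (63.8 to 76.1) and 60.5 CPM (57.1 to 63.9). Their log2 ratios were both 0.20, and both fell below 0 when the libraries were scaled by the median of gene ratios (-0.09 and -0.10) or summed from thinned cells (-0.09 and -0.14). Ltc4s (chr11:50236461-50238616, minus strand), which joins glutathione to leukotriene A4 and so makes leukotriene C4, was at 185 CPM (176 to 196) and 142 CPM (137 to 147). Its log2 ratio of 0.39 was larger than the 0.10 between the lanes, and it stayed above 0 in all 12 alternatives, with a lowest value of 0.08. Among cells with 2000 to 4000 UMIs, Alox5ap was at 67.3 CPM in CCR2-/- and 41.2 CPM in WT (log2 0.70, 0.34 to 1.09). Ltc4s was at a log2 ratio of 0.15 there (-0.04 to 0.34) and Alox5 at -0.20 (-0.71 to 0.31). The contrast between Alox5ap and Ltc4s thus depended on the cells compared.

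In thinned cells Alox5 was detected in 2.52% of CCR2-/- and 2.79% of WT cells, Alox5ap in 4.84% and 5.07%, and Ltc4s in 15.3% and 12.9%. Unthinned, the shares were 6.43% and 12.8% for Alox5, 11.3% and 18.2% for Alox5ap, and 31.7% and 44.7% for Ltc4s. Among lymphoid-like cells Ltc4s had a UMI in 2 of 27 CCR2-/- cells (7.41%, interval 0.910 to 24.3) and Alox5 and Alox5ap in none. For Alox5 and Alox5ap the upper bounds were 12.8% in CCR2-/- and 28.5% in WT. These bounds exceed the thinned shares of both genes, so so few cells cannot place them above that background. Fewer thinned cells had an Alox5 UMI (61 in CCR2-/- and 84 in WT) than an Ltc4s UMI (370 and 390), so most cells with Ltc4s had no Alox5 UMI at this depth, which does not show that they lack it.

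Of the prostaglandin E2 receptors, the gene of EP4 was the more abundant. Ptger4 (chr15:5206661-5244187, minus strand) was at 60.3 CPM in CCR2-/- (54.8 to 66.2) and 30.5 CPM in WT (28.1 to 32.9), with the lanes between 29.99 and 31.6 CPM. The lanes were alike and both below the CCR2-/- library, with a log2 ratio of 0.96 (0.81 to 1.16) that was 0.51 (0.14 to 0.91) among cells with 2000 to 4000 UMIs. Its thinned shares were 5.63% and 2.99% and the unthinned shares 12.9% and 15.4%. Ptger4 had a UMI in 2 of the 27 CCR2-/- lymphoid-like cells, a share of 7.41%, so its shares are not above that background and cannot be read as expression by macrophages on their own; T cells are also known to express EP4. Ttc33 overlaps Ptger4 on the opposite strand. Ptger2 (chr14:44988195-45003820, plus strand), encoding EP2, was at 6.61 CPM from 48 UMIs and 6.09 CPM from 126 UMIs, which did not differ beyond counting error. Its thinned shares were 0.745% and 0.531%.

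The order of the members by level was alike at its lower end and differed at its upper end. In CCR2-/- it ran from Ptgs2, Ptgs1 and Hpgds through Ltc4s and Tbxas1 to Alox5ap, Ptger4, Alox5, Ptger2 and Ptges. In WT, Ptgs1 came first and was followed by Hpgds, Ptgs2, Tbxas1 and Ltc4s. The lanes placed Ptgs2 between 143 and 188 CPM, a range that holds both Tbxas1 lanes and overlaps that of Ltc4s, so these neighbours were not separated in WT, whereas Ptgs1 and Hpgds lay above Ptgs2 in both lanes. In CCR2-/- the counting intervals of Alox5ap and Ptger4 overlapped and those of the 5 genes above them did not.

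The promoters of the cyclooxygenase genes and of the next members by size of ratio are shown because those genes share the pathway and differ in how far their levels differed. The letters are the 250 bases before the RefSeq start on GRCm38.p6, written 5′ to 3′ on the strand of the gene, with matches of the searched motifs in capitals. 
Ptgs2, chr1:150099781-150100030, plus strand: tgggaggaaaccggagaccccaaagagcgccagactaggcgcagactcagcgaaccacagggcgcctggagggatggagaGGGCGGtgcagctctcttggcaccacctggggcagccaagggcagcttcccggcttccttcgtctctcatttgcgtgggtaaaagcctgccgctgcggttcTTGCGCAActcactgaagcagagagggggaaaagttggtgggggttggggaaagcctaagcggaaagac
Ptgs1, chr2:36230176-36230425, plus strand: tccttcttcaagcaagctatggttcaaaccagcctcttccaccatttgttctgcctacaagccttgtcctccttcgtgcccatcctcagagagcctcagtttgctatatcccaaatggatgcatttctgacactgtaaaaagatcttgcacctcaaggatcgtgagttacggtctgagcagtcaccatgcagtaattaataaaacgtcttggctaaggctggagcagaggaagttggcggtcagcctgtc
Hpgds, chr6:65144731-65144980, minus strand: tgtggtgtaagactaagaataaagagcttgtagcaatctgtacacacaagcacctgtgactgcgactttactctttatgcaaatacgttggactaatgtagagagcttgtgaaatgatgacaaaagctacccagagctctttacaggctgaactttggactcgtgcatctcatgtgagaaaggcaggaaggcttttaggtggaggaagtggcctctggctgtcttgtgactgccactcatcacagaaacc
Ptger4, chr15:5244188-5244437, minus strand: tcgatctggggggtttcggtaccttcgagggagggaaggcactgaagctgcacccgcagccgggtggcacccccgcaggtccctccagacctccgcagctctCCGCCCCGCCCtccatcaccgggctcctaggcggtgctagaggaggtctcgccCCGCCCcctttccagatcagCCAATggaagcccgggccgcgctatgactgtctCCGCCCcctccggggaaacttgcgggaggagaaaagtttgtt
Just downstream of the annotated RefSeq start of Ptgs2, at chr1:150100033-150100062, lies a short run in which a CRE half-site and an E-box overlap.
Ptgs2 site, plus strand: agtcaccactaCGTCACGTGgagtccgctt

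Both strands of the 300 bases from 250 before to 50 after the start were searched for 8 motifs: the CRE half-site TGACG, the palindromic CRE TGACGTCA, the E-box CACGTG, the C/EBP palindrome TTGCGCAA, the AP-1 site TGANTCA, the TATA box TATAAA, the CCAAT box CCAAT and the GC box GGGCGG. The Ptgs2 window held the C/EBP palindrome 69 bases before the start, a GC box 170 bases before it, and the CRE half-site and E-box 14 and 17 bases after it. Of all 32851 windows in the table, 0.183% held the C/EBP palindrome, 20.8% the CRE half-site, 7.15% the E-box and 35.7% the GC box, so the palindrome was the rare one. The Ptgs1 and Hpgds windows held none of the 8 motifs, and the Ptger4 window held 4 GC boxes and a CCAAT box (37.4% of windows). These are matches of letters in windows and not measured sites. Positions are counted from the annotated start, and where transcription starts in these cells was not measured. A window was found for 9 of the 10 members.

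Around the members, 24 of 64 further genes of the same pathways reached a mean of 10 CPM, and 11 of the 63 found in the files had no UMI in either library. Of the 24, 1 was at least 2-fold higher in CCR2-/- and 1 at least 2-fold lower, beside 9.04% and 3.12% of all 7401 genes. Of these pathway genes, 11 lay above 0 and 13 below. Their median log2 ratio was -0.02, and the median over all 7401 genes was 0.18. Hpgd, the dehydrogenase that inactivates prostaglandins, was the higher one, at 320 CPM against 138 CPM (log2 1.20, 1.13 to 1.29), with -0.11 between the lanes. Anxa1, encoding annexin A1, was the lower one, at 7.43 against 17.1 CPM from 54 and 354 UMIs (log2 -1.10). Anxa1 passed the 2-fold line by little and fell short of it without WT lane 2. Hpgd was thus higher in the same library as Ptgs2.

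Among the phospholipases, Pla2g7 was the most abundant and alike in both libraries, at 538 CPM in CCR2-/- and 548 CPM in WT. Pla2g2d was at 350 and 177 CPM, a log2 ratio of 0.98 beside 0.50 between the lanes. Pla2g4a, the cytosolic phospholipase that releases arachidonic acid, was at 88.8 and 72.8 CPM, and Pla2g16, a phospholipase of adipose tissue among other sites, at 68.7 and 73.5 CPM. Lpcat2, which returns fatty acids to phospholipids and makes platelet-activating factor, was at 293 and 292 CPM. Cyp4f18, a leukotriene B4 hydroxylase, was lower in CCR2-/-, at 153 against 233 CPM (log2 -0.60, lanes 0.40), and Cysltr1, the receptor for cysteinyl leukotrienes, was at 96.3 and 101 CPM. Akr1b3, an aldose reductase, was at 78.3 and 111 CPM. The prostaglandin transporter Slco2a1 had 79 UMIs in CCR2-/- and 7 in WT, and 63.3% of the former came from 18 cells with at least 3 endothelial genes. Ltb4r1, encoding the leukotriene B4 receptor, had 11 and 194 UMIs.

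**Figure D2:**
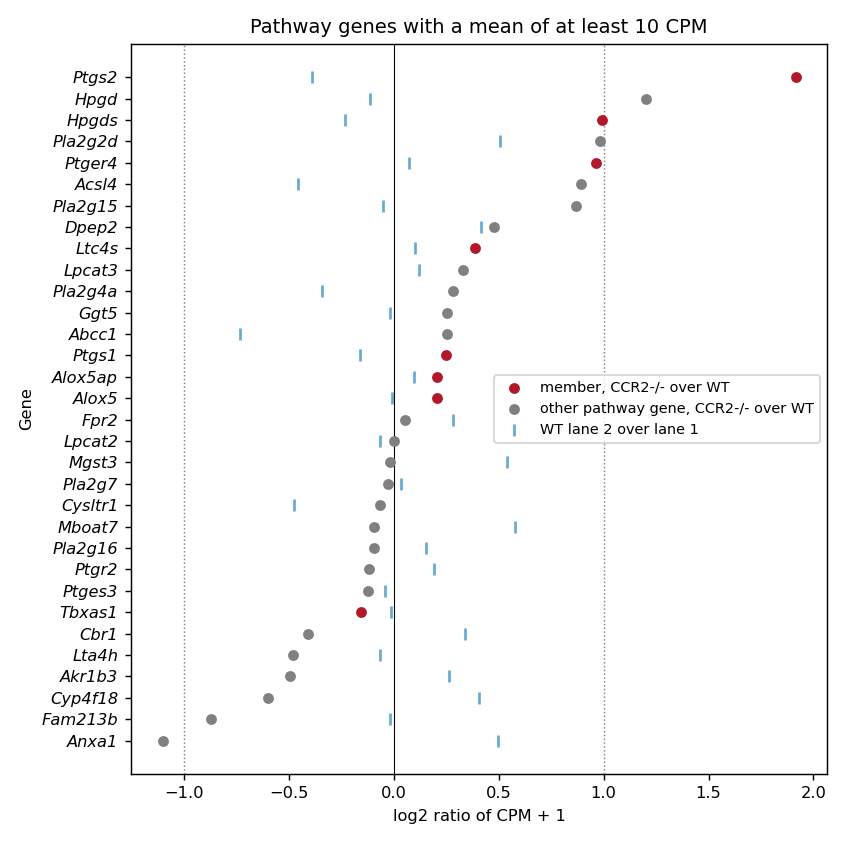
The log2 ratio of CPM plus 1 between CCR2-/- and WT for the 8 members (red) and the 24 further pathway genes (grey) with a mean of at least 10 CPM, with the ratio of WT lane 2 to lane 1 as ticks and dotted lines at 2-fold. Ptgs2 at 1.92 and Hpgd at 1.20 lie beyond the upper line and Anxa1 at -1.10 beyond the lower one, while the lane ticks stay within both lines.

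Ptgs2 was more often detected in cells that carried Thbs1, encoding thrombospondin 1, or Plaur, the urokinase receptor. Both partner genes were themselves higher in the CCR2-/- library, Thbs1 at 401 against 117 CPM and Plaur at 198 against 43.5 CPM. In thinned CCR2-/- cells the Ptgs2 share was 28.0% (25.8 to 30.3) with neither partner, 49.5% with Thbs1 only, 41.6% with Plaur only and 59.2% (51.4 to 66.7) with both. In WT it was 12.3% (11.1 to 13.7), 24.2%, 26.0% and 32.3% (16.7 to 51.4), the last from 31 cells. Of the 27 CCR2-/- lymphoid-like cells, 2 had a UMI of Thbs1 (7.41%) and 4 a UMI of Plaur (14.8%, 4.19 to 33.7), beside 25.1% and 16.6% of all thinned CCR2-/- cells. The Plaur share is thus not above that background, and cells with Plaur only are not read as cells that express it. Within either library, cells with a partner had a higher share than cells with neither, and in each class the CCR2-/- share was above the WT share, although for cells with Plaur only and cells with both partners the counting intervals overlapped slightly.

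**Figure D3:**
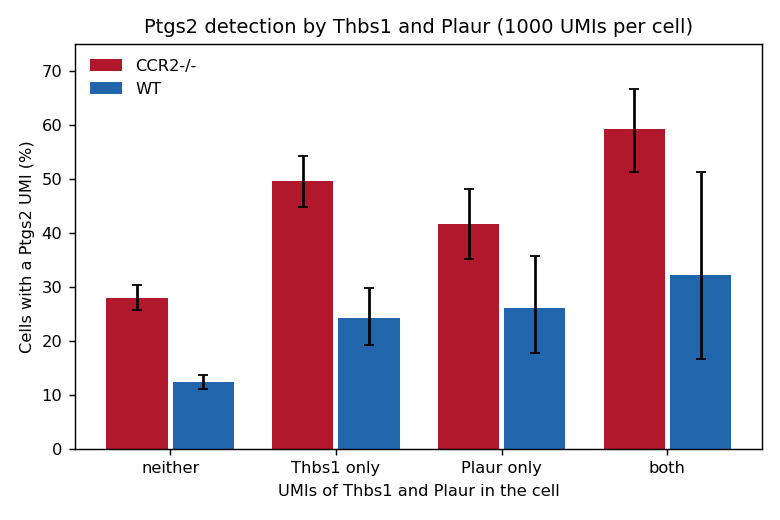
Percent of cells with a Ptgs2 UMI, at 1000 UMIs per cell, by whether the cell also held a UMI of Thbs1, Plaur, both or neither, for CCR2-/- (red) and WT (blue). Error bars are 95% Clopper-Pearson intervals, which cover counting error only, and the shares run from 28.0% to 59.2% in CCR2-/- and from 12.3% to 32.3% in WT.

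Ptgs2 and either partner were found together in 413 CCR2-/- cells, 1.39 times the number given by their separate shares, and in 102 WT cells, 1.80 times (1.69 and 2.09 times in the lanes). Of the other genes of the same list, Ptgs2 was found with Pgf 1.34 times as often as the separate shares give in CCR2-/- and 1.97 times in WT, and with Tnfaip2 1.33 and 1.46 times. With Vwa1 there was no such excess in WT, at 0.813 times (8 cells, where the separate shares give 9.84), and the ratio was 1.08 in CCR2-/-. With the 4 classes given the same make-up in both libraries, the ratio of Ptgs2 shares was 2.12 in place of 2.52. Ptgs1 showed a smaller excess with the same partners, 1.19 times in CCR2-/- and 1.23 times in WT (1.22 and 1.25 times in the lanes). Hpgds was at 1.17 times in CCR2-/- and 1.24 times in WT, but the lanes went opposite ways, at 1.36 times in lane 1 and 0.907 times in lane 2, where 20 cells were found and the separate shares give 22.1. Alox5ap was at 0.764 times in CCR2-/-, from 31 cells where the separate shares give 40.6, and at 0.537 times in WT, from 11 cells where they give 20.5. The lanes gave 0.375 times from 5 cells and 0.859 times from 6 cells, where the separate shares give 6.98. The Alox5ap share with a partner and with neither was 3.70% (2.53 to 5.21) and 5.45% (4.38 to 6.69) in CCR2-/-. In WT these were 2.72% (1.37 to 4.82) and 5.44% (4.60 to 6.38), so the intervals overlapped in both libraries. For Ptger4 the ratio was 0.678 in CCR2-/-, from 32 cells, while in WT 9 cells were found where the separate shares give 12.1. Ltc4s and Tbxas1 stood between 0.951 and 1.09 times.

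The early response share moved with Ptgs2 differently in the libraries. Cells of both were ordered by the percent of their UMIs from Fos, Egr1 and Dusp1 and divided into 5 groups of equal size (quintiles), with borders at 0.148%, 0.294%, 0.604% and 1.14%. The CCR2-/- cells lay mostly in the upper quintiles (66, 92, 321, 872 and 1065 cells) and the WT cells in the lower (1020, 994, 765, 214 and 22 cells). In WT the Ptgs2 share grew with each quintile, from 6.08% through 13.7%, 20.1% and 28.5% to 11 of the 22 cells of the highest. In CCR2-/- it was 7.58% in the lowest quintile, 27.2% in the second, 43.3% in the middle one, and then 38.4% and 33.0%. The WT order was the same in both lanes over the 4 lower quintiles, with 5.91%, 15.0%, 21.6% and 29.0% in lane 1 and 6.44%, 10.3%, 16.6% and 27.5% in lane 2. The rise from the lowest to the middle quintile in CCR2-/- was not particular to Ptgs2. Ptgs1 went from 21.2% to 42.4% there and Hpgds from 16.7% to 33.6%.

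Compared within quintiles, the libraries were closer than overall. The CCR2-/- share was 1.25 times the WT share in the lowest quintile (approximate 95% interval 0.519 to 2.99), 1.99 times in the second (1.37 to 2.87), 2.15 times in the middle one (1.78 to 2.60) and 1.35 times in the fourth (1.07 to 1.69). In the highest it was 0.659 times (0.430 to 1.01). With both libraries given the same make-up of quintiles, the ratio of 2.52 became 1.26, and 1.70 without the highest quintile, whose WT value rests on 22 cells. Without thinning, where the deeper WT cells are more likely to show a UMI, the latter ratio was 0.983. The early response genes differed between the libraries along with genotype and animal source, and their part in the Ptgs2 difference was not tested beyond these values.

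**Figure D4:**
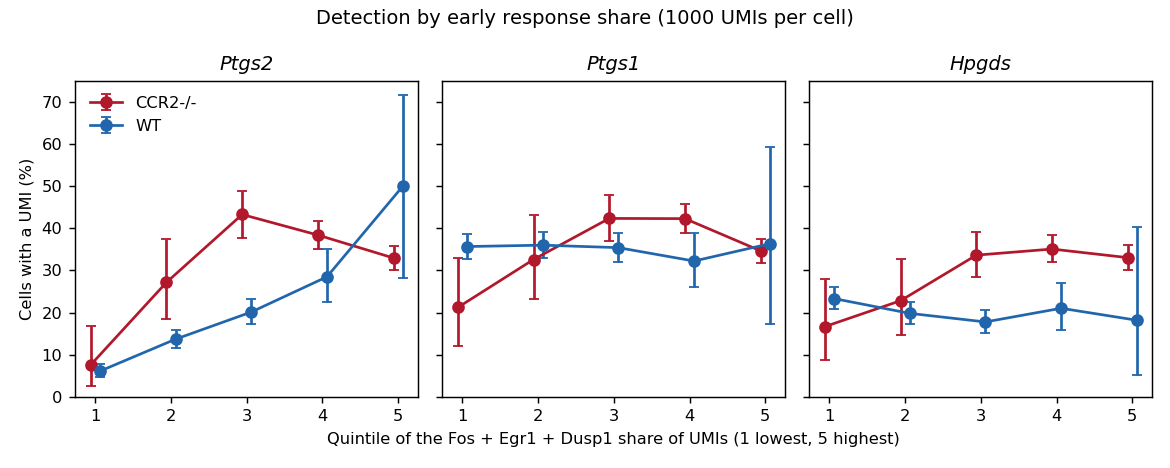
Percent of cells with a UMI of Ptgs2, Ptgs1 or Hpgds, at 1000 UMIs per cell, in quintiles of the share of UMIs from Fos, Egr1 and Dusp1, for CCR2-/- (red) and WT (blue) with 95% Clopper-Pearson intervals. The WT line of Ptgs2 climbs from 6.08% to 11 of 22 cells, and its CCR2-/- line peaks at 43.3% in the middle quintile. The WT lines of Ptgs1 and Hpgds stay between 32.2% and 36.4% and between 17.8% and 23.3%. Their CCR2-/- lines rise from the lowest to the middle quintile, from 21.2% to 42.4% and from 16.7% to 33.6%.

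Within WT, cells with a Ptgs2 UMI had a median early response share of 0.313%, and cells without had 0.198%. In CCR2-/- the medians were 1.03% and 1.08%. For Ptgs1 the medians with and without a UMI were 0.209% and 0.214% in WT and 1.02% and 1.09% in CCR2-/-, and for Hpgds 0.188% and 0.217%, and 1.08% and 1.06%. Of these 3 genes, the gap was widest for Ptgs2 in WT. With quintiles given the same make-up in both libraries, the ratio of Hpgds shares was 1.41 (1.61 overall), and that of Ptgs1 shares 0.985 (1.07 overall). Ptger4 cells in CCR2-/- had a median early response share of 1.35% against 1.05% in cells without, and Alox5 cells 1.41% against 1.06%. The ratio of Ptger4 shares was 1.89 over all thinned cells, 1.63 with the 5 quintiles given the same make-up, and 1.09 over the 4 lower quintiles. For Alox5 these ratios were 0.906, 0.620 and 0.314. The standardised values of both genes rest on few cells. Of CCR2-/- cells in the lowest, second and middle quintiles, 0 of 66, 0 of 92 and 2 of 321 had an Alox5 UMI. For Ptger4, the 4 lower quintiles held 4, 1, 11 and 40 CCR2-/- cells with a UMI. Neither gene had a UMI in the 22 WT cells of the highest quintile. No difference between the libraries is read from these standardised values.

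The members were then read in gates, each holding the thinned cells with at least 2 UMIs summed over a short marker list. A gate is a range of a count and not a cell type, and gates overlap: 70.0% of the CCR2-/- cells and 23.7% of the WT cells in the Ccl24 gate (Ccl24, Npl, H2-M2, Acp5, Cd63) were also in the Thbs1 Plaur gate (Thbs1, Plaur, Pgf, Vwa1, Tnfaip2). In the Ccl24 gate Ptgs1 was detected in 48.9% of 697 CCR2-/- cells and 43.8% of 898 WT cells, against 33.6% and 32.0% outside it. Hpgds behaved alike, with 38.7% and 29.3% inside and 30.7% and 16.9% outside. Alox5ap was at 1.72% and 1.67% inside and 6.11% and 6.52% outside, so the cyclooxygenase and D synthase genes and the gene of the lipoxygenase-activating protein had opposite patterns across this gate in both libraries.

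**Figure D5:**
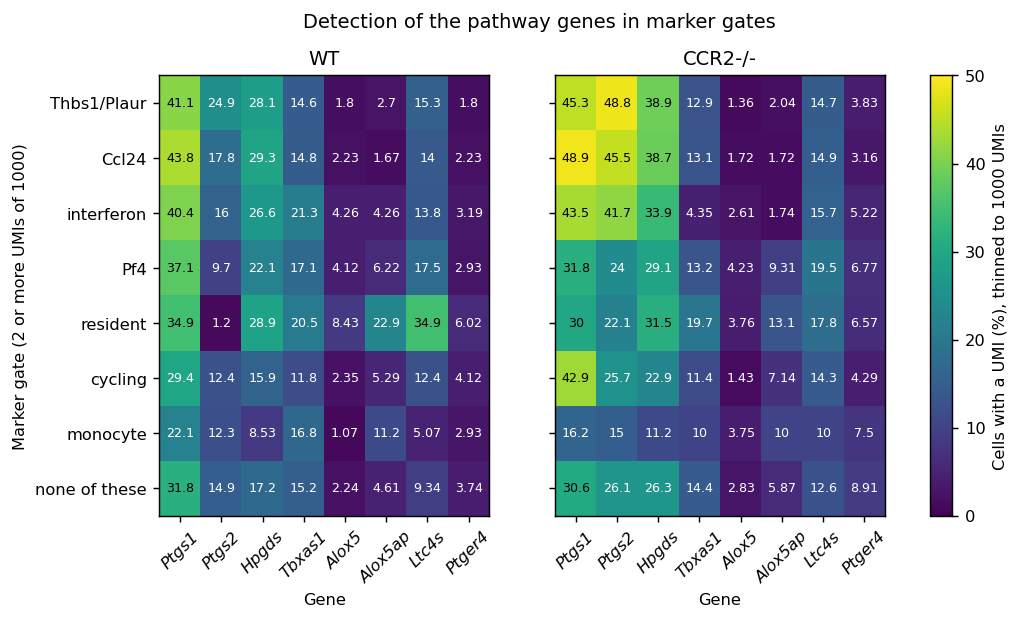
Percent of cells with a UMI, at 1000 UMIs per cell, for 8 members (columns) in marker gates (rows) of the WT and CCR2-/- libraries, printed in each field and shown by colour; the last row holds cells in none of the other gates shown. Ptgs2 runs from 1.20% in the WT resident gate to 48.8% in the CCR2-/- Thbs1/Plaur gate, and Alox5ap is highest in the resident gate in both libraries, at 22.9% and 13.1%.

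The resident gate (Timd4, Cd163, Folr2, Lyve1, Cbr2, F13a1), whose genes mark long-lived tissue macrophages, held 213 CCR2-/- cells (8.82%) and 83 WT cells (2.75%). Alox5ap was detected in 13.1% of these CCR2-/- cells (8.92 to 18.4) and 22.9% of these WT cells (14.4 to 33.4), against 4.04% and 4.57% of other cells. Ltc4s was in 34.9% of WT cells of the gate (24.8 to 46.2) against 12.3% of others, and in CCR2-/- in 17.8% (12.9 to 23.7) against 15.1%. Ptgs2 was low there in WT, in 1 of 83 cells (1.20%) against 14.4% of others, and was in 22.1% of the CCR2-/- cells against 36.7%. Alox5 had a UMI in 8 CCR2-/- cells (3.76%) and 7 WT cells (8.43%) of the gate, against 2.41% and 2.63% of others. The genes of the list did not mark the same pattern. Among cells with a UMI of F13a1, Alox5ap was detected in 22.9% in CCR2-/- and 30.6% in WT, and among cells with Cd163 in 10.4% and 10.8%, whereas among cells with Timd4 it was in 3.02% and 3.51%, against 5.17% and 5.14% of cells without. For Ptgs2 in CCR2-/-, the share was 0.563 times that of other cells among cells with Cd163 and 0.420 times among cells with F13a1, but 37.9% of the 364 cells with Timd4 held it, against 34.9% of cells without. The median early response share of the gate was 1.36% in CCR2-/- and 0.123% in WT.

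The monocyte gate (Plac8, Lsp1, S100a6, S100a4, Vim) held 80 CCR2-/- cells (3.31%) and 375 WT cells (12.4%). Hpgds was low in it, in 11.2% of CCR2-/- and 8.53% of WT cells, against 33.8% and 22.3% outside. Ptgs1 was low too, in 16.2% and 22.1%, against 38.7% and 37.4% outside. Alox5ap was above its share outside, with 10.0% and 11.2% against 4.67% and 4.20%. Ptgs2 was in 15.0% and 12.3% of the cells, the closest the libraries came in any gate, at a ratio of 1.22. In the Thbs1 Plaur, Ccl24, Pf4, interferon and cycling gates the ratio lay between 1.96 and 2.62. The CCR2-/- share of the monocyte gate rests on 80 cells and no interval was taken for the ratios. The monocyte gate is thus not shown to differ from those gates. With monocyte-gate cells and cells of other lineages left out, the log2 ratio of Ptgs2 over the libraries was 1.91 and that of Hpgds 0.90.

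Detection of members in the same cell was also counted by pairs. Ptgs1 and Hpgds were found together in 262 WT cells, 1.19 times the number given by their separate shares (1.05 to 1.34), and in 326 CCR2-/- cells, 1.08 times (0.962 to 1.20). Ptgs2 and Alox5ap met in 12 WT cells, 0.558 times the number (0.288 to 0.974), and in 30 CCR2-/- cells, 0.725 times (0.489 to 1.03). Hpgds and Alox5ap met in 18 WT cells, 0.572 times (0.339 to 0.904), and in 37 CCR2-/- cells, 0.957 times. Ptgs2 and Ptger4 met in 34 CCR2-/- cells, 0.706 times (0.489 to 0.987), and in 19 WT cells where the separate shares give 12.7, with an interval that includes 1 (0.904 to 2.34 times). The intervals are Poisson intervals of the number of cells and are not adjusted for the number of pairs.

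The genes whose counts were most like those of Ptgs2 across thinned cells were taken as those among the first 25 by Pearson correlation in both libraries, out of 2675 genes in CCR2-/- and 2460 in WT detected in at least 5% of cells. There were 9: Tnfaip2, Psap, Il1b, Rgs1, Thbs1, Btg1, Cebpb, Junb and Irf2bp2. Il1b, encoding the cytokine interleukin-1 beta, stood at rank 3 in CCR2-/- (r = 0.24) and at rank 1 in WT (r = 0.24). Tnfaip2, a gene induced by tumour necrosis factor, stood first in CCR2-/- (r = 0.26) and at rank 13 in WT (r = 0.14). Cebpb, encoding the transcription factor C/EBP beta, had r = 0.15 and 0.14, and Junb, encoding a component of AP-1, 0.15 and 0.20. No member was among them: the correlation of Ptgs2 with Ptgs1 was 0.05 and 0.03, and with Hpgds 0.03 and 0.02. These are weak correlations over 2416 and 3015 cells of 1 library each, in sparse counts, and are given as a ranking only.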

How the data were processed

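RNA of sorted macrophages was measured in 1 library per genotype with the 10x Genomics 3′ v2 chemistry. The deposited matrices hold raw UMI counts per gene and cell, made by the authors with Cell Ranger 3.0.1 on mm10, per the submitters' processing notes. The annotation used for counting is not given in the sources used here.

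Cells below 200 genes or above 10% mitochondrial UMIs were left out. UMIs were summed per library and WT lane, scaled to 1000000 (CPM), and log2 ratios taken with a pseudocount of 1 CPM for genes with a mean of at least 10 CPM. Shares used cells thinned to 1000 UMIs (seed 1). Poisson, Clopper-Pearson and conditional binomial intervals (95%) cover counting error only. The ratio intervals within quintiles are log-normal approximations. No clustering and no doublet caller were used; an alternative left out the 98 cells of highest UMI count. Coordinates are from GENCODE M21 (GRCm38) by Ensembl identifier, and promoters from RefSeq. Of 200 genes simulated with changes larger than 2-fold, 99.5% passed 2-fold in the right direction. The simulation held Poisson noise of summed counts only, so this recovery checks the calculation. It does not cover differences between animals, in depth or in the make-up of cells. Python 3.11.15, numpy 2.4.6 and scipy 1.17.1 were used.

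The members and lists were chosen with earlier results of these data known. Named genes were the 10 members, pathway genes past 2-fold and the 10 of highest mean CPM, genes among the first 25 by likeness to Ptgs2 in both libraries, and Thbs1, Plaur, Fos, Egr1, Dusp1 and Ccr2. Slco2a1 and Ltb4r1 lie outside that rule and were chosen after their values were seen.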

Additional observations from a re-analysis of the deposited data

How the results depend on the processing

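No paired analysis was possible because each genotype has 1 library. The log2 ratio of Ptgs2 stayed above the 2-fold line in all 12 alternatives. It was 1.61 with median-of-ratios size factors, 2.05 with at least 500 genes and at most 5% mitochondrial UMIs, 2.20 without WT lane 1, 1.81 without WT lane 2 and 1.19 in cells with 2000 to 4000 UMIs. Median-of-ratios scaling moved the median of all genes from 0.18 to -0.12 and the shares 2-fold higher and lower from 9.04% and 3.12% to 4.67% and 9.26%. Members at least 2-fold higher numbered 3 under the stricter cell filter, and 2 without other-lineage cells, without the cells of highest UMI count or without WT lane 1. In those settings, in the same order, 10.7%, 8.68%, 9.29% and 14.4% of all tested genes were at least 2-fold higher. Pathway genes 2-fold higher numbered 0 with median-of-ratios factors, 3 with no minimum, and 2 under the stricter filter, without other-lineage cells or without either lane. Of all genes, 8.92% were 2-fold higher with no minimum and 8.06% without WT lane 2. Those 2-fold lower numbered 2 with median-of-ratios factors or thinned sums, 4 with no minimum, and 0 with a pseudocount of 10 CPM, the stricter filter, cells of 2000 to 4000 UMIs, without other-lineage and monocyte-gate cells or without WT lane 2. The pathway median was -0.32 with median-of-ratios factors and 0.10 with no minimum.

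The ratio of Ptgs2 shares was 2.03 at 2000 UMIs, 1.26 unthinned, 2.80 under the stricter filter and 2.84 without WT lane 1. Standardised over the 4 lower quintiles (1.70), it was 1.44 at 2000 UMIs, 0.983 unthinned and 1.52 without WT lane 2; over 5 quintiles it was 1.26, and 1.70 without the highest quintile, an alternative chosen after seeing the data. Other settings leaving fewer than 20 cells of a library in a quintile gave no value. In WT the fourth over the lowest quintile (4.69) was 2.49 unthinned, 7.68 without WT lane 1 and 3.25 with quintiles cut within each library. Ptgs2 with Thbs1 or Plaur in WT (1.80) was 2.37 at 500 UMIs and 1.42 unthinned. Of the other values, 217 stayed within their counting intervals and 91 did not. The animals' spread is unknown, and members under 10 CPM could not be compared at this depth.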
